A study of Mus musculus with 12 samples.

Results

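Iron transport, ferritin and metallothionein genes were followed in BV-2 microglia-like cells, an immortalized mouse line used as a model of brain microglia. The 9 genes are Slc11a1, Slc11a2, Slc40a1, Tfrc, Fth1, Mt1, Mt2, Slc39a14 and Slc30a1, out of 18194 genes named on the Affymetrix mouse genome array. They were chosen by gene name, and every probe set annotated to one of them was taken, which gave 24 of the 45101 probe sets. Cells were left untreated (control) or received luteolin at 50 µM, LPS at 50 ng/ml, or both agents at these doses (luteolin + LPS), each for 24 h, with 3 arrays per condition. LPS, a component of the bacterial cell wall, activates macrophages and microglia, and luteolin belongs to the flavonoids of plants. Luteolin was dissolved in DMSO, whereas the labels call the control cells untreated, so an effect of the solvent cannot be told apart from that of luteolin. All values come from 1 cell line in culture.

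Macrophages and microglia take up iron through the transferrin receptor, encoded by Tfrc, and carry it over the endosomal membrane with the divalent metal transporter DMT1, encoded by Slc11a2. A related transporter, NRAMP1, encoded by Slc11a1, removes metal ions from the phagosome and is known for its part in resistance to bacteria that live inside macrophages. Iron that is not used is stored in ferritin, of which Fth1 encodes the heavy chain, or leaves the cell through ferroportin, encoded by Slc40a1. Slc39a14 encodes ZIP14, which imports zinc and iron, Slc30a1 encodes the zinc exporter ZnT1, and the metallothioneins Mt1 and Mt2 bind zinc and copper in the cytosol and are switched on by the zinc-sensing factor encoded by Mtf1.

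In the fit without the replicate number, LPS raised 1 of the 9 genes, Slc11a2, and it did so with or without luteolin. Of all genes tested, 4.18% passed the test for LPS against control and 1.81% for luteolin + LPS against luteolin, in either direction. The signal of Slc11a2 was 4.08-fold higher in LPS than in control cells and 4.72-fold higher in luteolin + LPS than in luteolin cells. Slc11a1 was higher in all 3 luteolin arrays than in every control array and in all 3 luteolin + LPS arrays than in every LPS array. These differences passed the test only in alternative fits. Among them were fits that hold the replicate number fixed or give less weight to arrays further from their condition means (array weights). The LPS arrays of Slc11a1 also all lay above its control arrays, and this rise too passed the test only in such fits. Fth1 was read near the top of the signal scale on every array, and Slc39a14 and Slc30a1 passed the test in no comparison. No gene of the 9 fell in the test without the replicate number.

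A gene was called when its adjusted p was under 0.05 in a limma model of all 12 arrays, with Benjamini-Hochberg adjustment over the 12071 genes whose mean signal reached 50 in at least 1 condition. All 9 genes were among those tested. LPS against control called 1 of the 9, with a background of 4.18% of all genes tested, and luteolin + LPS against luteolin called 1 of the 9, with a background of 1.81%. Luteolin against control called 0 of the 9, with a background of 0%, and luteolin + LPS against LPS called 0, with a background of 0.505%. In limma's unadjusted test, 3 of the 9 were under 0.05 for luteolin, 2 for luteolin + LPS against LPS, 3 for LPS and 4 for luteolin + LPS against luteolin. Over all genes tested, 9.09%, 14.9%, 20.5% and 11.5% were under 0.05 in these comparisons, in the same order. The median log2 fold change of the 9 genes was 0.17 for luteolin against control and 0.27 for LPS against control, beside medians of -0.01 and -0.04 over all genes tested.

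The same replicate number marked arrays that deviated together, and the block fit, which holds the replicate number fixed, called more genes. With it, LPS against control called 2 of the 9 against a background of 11.1%, and luteolin + LPS against luteolin called 3 of the 9 against 4.59%. Luteolin against control then called 1 of the 9 against a background of 0.282%, and luteolin + LPS against LPS called 1 against 4.79%. Comparisons that use the same control, luteolin or LPS arrays share their measurement error, so their values are set side by side and not counted as separate evidence.

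The 12 arrays had median signals between 52.2 and 56.4 and correlated within conditions at 0.978 or more. The array luteolin + LPS 2 differed from its 2 companions in interferon response genes. The median of 9 interferon response genes, relative to control, was -0.36 on the log2 scale in that array, against 4.75 and 2.81 in the other arrays of the condition. The median of 11 NF-kappaB response genes was 2.16 in that array, 2.97 and 3.28 in its companions and 2.45 to 3.40 in the LPS arrays. Of 12 microglia and macrophage markers, 11 reached a mean signal of 50 in the control, luteolin and LPS cells and 10 did so in luteolin + LPS cells. Their summed signals lay between 44210 and 62440 on the 12 arrays. The brightest was Cd68, with condition means of 14900 to 16180. The dimmest were Cx3cr1 at 43.7 to 54.6, P2ry12 at 23.1 to 73.8 and Tmem119 at 58.5 to 77.4. That level of 50 lies below the median signal of every array. No more than 2 of 9 neuron markers, 2 of 7 astrocyte markers, 3 of 6 oligodendrocyte markers and 1 of 7 fibroblast markers reached that level in any condition.

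**Figure D1:**
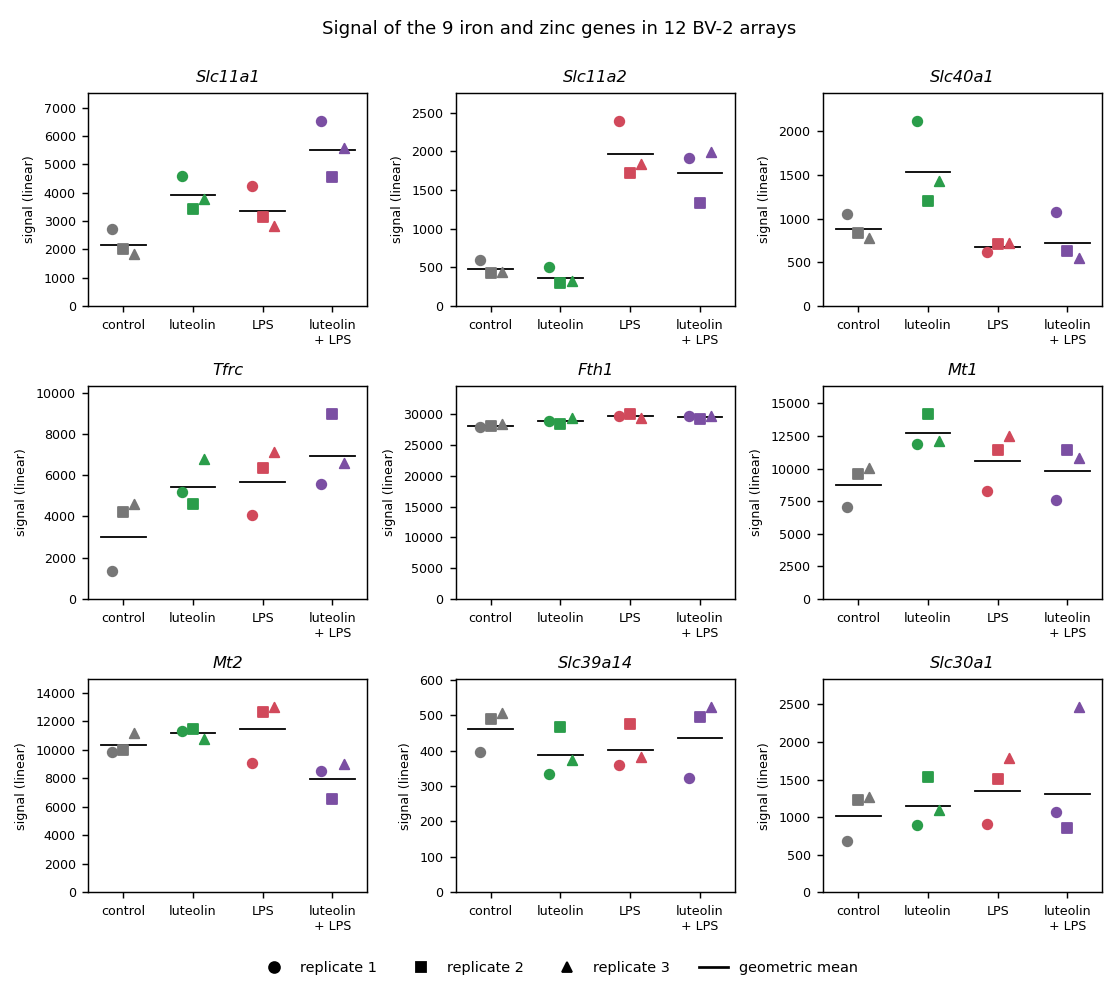
Deposited signal (linear, arbitrary units) of the probe set kept for each of the 9 genes on 12 arrays, with 1 symbol per replicate number and a bar at the geometric mean of each condition. Slc11a2 separates the conditions with LPS (1336 to 2395) from those without (297 to 592), and Fth1 stays between 27920 and 30080.

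Slc11a1, the phagosomal metal transporter NRAMP1, had signals of 2715, 2025 and 1825 in the control arrays 1 to 3 and 4599, 3432 and 3784 in the luteolin arrays. Every luteolin array lay above every control array. The LPS arrays read 4246, 3147 and 2833, and the luteolin + LPS arrays read 6532, 4564 and 5577. Replicate 1 was the highest array of each condition, and the lowest luteolin + LPS array lay above the highest LPS array. The condition means therefore ranked control, LPS, luteolin, and luteolin + LPS, but the LPS and luteolin arrays overlapped.

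The log2 fold change of Slc11a1 with luteolin was 0.86 ± 0.21 (SE, n = 3 per condition) against control, a 1.81-fold difference, with an adjusted p of 0.235 in limma. With LPS present it was 0.71 ± 0.21, or 1.64-fold, at an adjusted p of 0.138. LPS itself gave 0.64 against control, or 1.56-fold, at an adjusted p of 0.113, and within the 3 replicate numbers this difference was 0.64, 0.64 and 0.63. In the block fit all 4 comparisons were called, at adjusted p of 0.036 for luteolin, 0.0174 for luteolin + LPS against LPS, 0.00898 for LPS, and 0.0399 for luteolin + LPS against luteolin, where the log2 fold change was 0.49. With array weights 3 of the 4 were called, at 0.94 for luteolin (adjusted p = 0.00247), 0.85 for luteolin + LPS against LPS (0.0323) and 0.66 for LPS (0.00482). The difference between the luteolin effects with and without LPS was -0.15 (95% confidence interval -0.79 to 0.50), which holds 0. Leaving out the array luteolin + LPS 2 changed the luteolin effect under LPS from 0.71 to 0.85, and it remained without a call in the unblocked fit.

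Slc11a2, the endosomal and plasma membrane iron importer DMT1, had signals of 592.4, 428.3 and 439.6 in control and 499.2, 297.3 and 326.7 in luteolin cells. In LPS cells the signals were 2395, 1722 and 1841, and in luteolin + LPS cells they were 1913, 1336 and 1997. The 6 arrays with LPS all lay above the 6 without it, and replicate 1 was highest in 3 of the 4 conditions. The conditions within each pair overlapped.

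**Figure D2:**
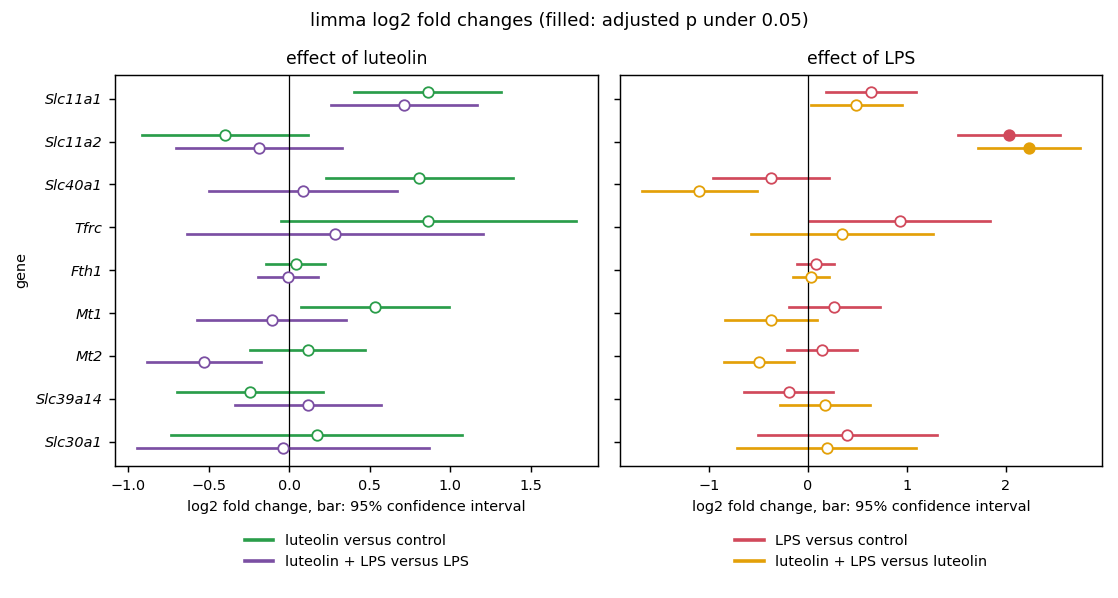
limma log2 fold changes (x axis) of the 9 genes with 95% confidence intervals, for the effect of luteolin (left) and the effect of LPS (right), n = 3 arrays per condition. The filled points mark calls at an adjusted p under 0.05, which only Slc11a2 reached, at 2.03 and 2.24.

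The log2 fold change of Slc11a2 with LPS was 2.03 ± 0.23 (SE, n = 3) at an adjusted p of 0.00120 in limma, and it was 2.02, 2.01 and 2.07 in replicates 1 to 3. With luteolin present it was 2.24 ± 0.23, at an adjusted p of 0.000815. Both calls were kept under all 22 alternative settings, with log2 fold changes of 1.62 to 2.18 and of 1.99 to 2.47. Without the array luteolin + LPS 2, the second value was 2.42. Luteolin gave no call for Slc11a2, with a log2 fold change of -0.40 (95% confidence interval -0.92 to 0.11) without LPS and -0.19 (-0.71 to 0.32) with LPS. The interaction of luteolin and LPS was 0.21 (-0.52 to 0.94). The arrays read the RNA of whole cultures, so a change in every cell cannot be told apart from a change in some of the cells.

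Slc11a2 is read by 4 probe sets, which did not give the same size of change. The probe set kept for the gene, 1452078_a_at, is the brightest. In a fit over all 24342 probe sets tested, where the background of calls was 3.19% for LPS against control, 1.29% for luteolin + LPS against luteolin, 0.246% for luteolin + LPS against LPS and 0% for luteolin against control, the kept one and 2 others were called for LPS against control. 1426441_at gave 2.39 (limma adjusted p = 0.00291), from signals of 104 to 123 in control to 412 to 1036 in LPS cells. 1417584_at gave 0.76 and was not called (adjusted p = 0.194), and its first LPS array, at 287, lay below its first control array, at 373. The dim 1441709_at gave 1.30 (adjusted p = 0.00147), but its control and luteolin arrays were all under a signal of 50, and with such values set to 50 the difference was 0.57. Under LPS this probe set was higher with luteolin in all arrays, at 107 to 115 against 69.3 to 84.4, and its log2 fold change of 0.58 (adjusted p = 0.102, or 0.0421 in the block fit) had the opposite sign to the -0.19 of the kept probe set. In this comparison 1426441_at and 1417584_at were also above 0, at 0.55 and 0.31, and not called (adjusted p = 0.456 and 0.715). The sign of the small luteolin difference under LPS therefore depended on the probe set. So did that of luteolin against control, which was -0.40 on the kept probe set and -0.21 on 1417584_at. It was 0.19 on 1426441_at and 0.16 on 1441709_at, and no probe set was called.

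The 3 genes whose 12 values ran closest to those of Slc11a2 were Sod2, which encodes the mitochondrial superoxide dismutase, Bcl3, a regulator of NF-kappaB, and Cybb, the catalytic subunit of the phagocyte NADPH oxidase. Each gene was taken relative to its own control mean over the 12 arrays, and the root mean square distance to Slc11a2 on the log2 scale was 0.27 for Sod2, 0.31 for Bcl3 and 0.37 for Cybb. The median distance over all genes tested was 1.45, and the 3 genes lay below it because they were picked as the nearest.

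**Figure D3:**
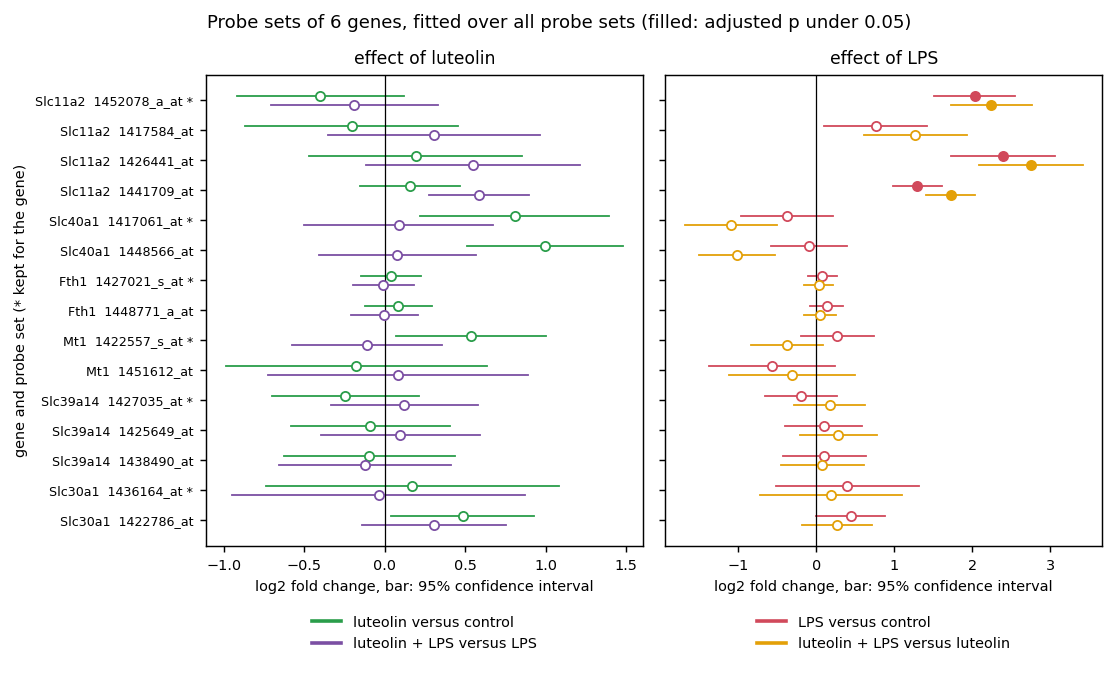
Log2 fold changes (x axis) with 95% confidence intervals of every tested probe set of 6 of the genes, from the fit over all probe sets, for the effect of luteolin (left) and of LPS (right). For LPS against control, the 4 probe sets of Slc11a2 ran from 0.76 to 2.39, whereas both probe sets of Slc40a1 lay at 0.81 and 0.99 for luteolin against control.

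Tfrc, the transferrin receptor through which cells take up iron-loaded transferrin, was the most variable of the 9 genes among controls. The kept probe set read 1360, 4228 and 4628 in control, 5165, 4584 and 6764 in luteolin, 4053, 6353 and 7127 in LPS, and 5575, 8969 and 6609 in luteolin + LPS cells. The first control array was the lowest of all 12. All 6 Tfrc probe sets showed this, and controls 2 and 3 exceeded control 1 by 3.25 to 9.32-fold.

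**Figure D4:**
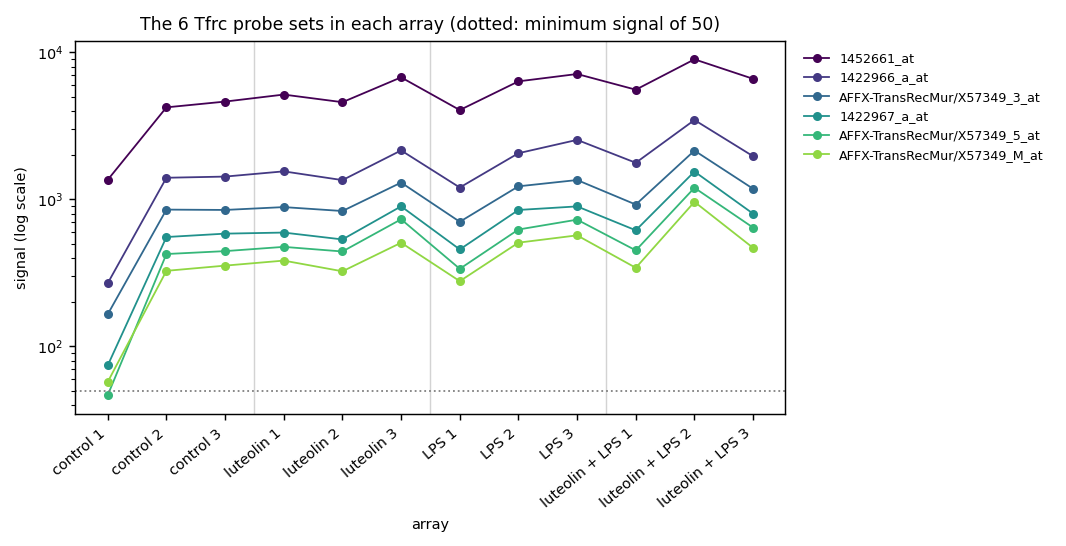
Signal (log scale) of the 6 Tfrc probe sets on each of the 12 arrays, with a dotted line at the minimum signal of 50. Every line drops at control 1, where the probe sets read 46.7 to 1360.

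The log2 fold changes of Tfrc were 0.86 for luteolin (95% confidence interval -0.05 to 1.78, limma adjusted p = 0.588) and 0.93 for LPS (0.01 to 1.85, adjusted p = 0.239). Without control 1 they were 0.30 and 0.36. Under LPS, luteolin gave 0.28 (-0.63 to 1.20), and without the array luteolin + LPS 2, which had the highest Tfrc signal, this was 0.10. The array carries Tfrc probe sets at the 3′ and the 5′ end of the transcript as controls of RNA quality, and their ratio was 3.55 in control 1 and 1.78 to 2.09 in the other 11 arrays. The same ratio for Actb was 1.37 in control 1 against 1.10 to 1.25, and for Gapdh 0.919 against 0.895 to 0.932. The part of RNA quality in the low Tfrc value of control 1 was not tested.

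Slc40a1, which encodes ferroportin, the iron exporter of the plasma membrane, had signals of 1059, 831.6 and 773.9 in control and 2122, 1200 and 1435 in luteolin cells. All luteolin arrays lay above all control arrays. LPS cells read 616.5, 711.8 and 715.8, which was below every control array on this probe set, and luteolin + LPS cells read 1082, 631.0 and 550.0, below every luteolin array. The 2 groups of LPS-treated arrays overlapped.

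The log2 fold change of Slc40a1 was 0.81 ± 0.26 for luteolin (SE, n = 3), or 1.75-fold, at an adjusted p of 0.395 in limma. With array weights it was 0.79 and was called (adjusted p = 0.0142). Its second probe set, 1448566_at, read 589.6 to 635 in control and 951 to 1584 in luteolin cells, a log2 fold change of 0.99 that was not called either (adjusted p = 0.268). In cells that had luteolin, the addition of LPS gave -1.09 ± 0.26 for the kept probe set, a ratio of 0.469, at an adjusted p of 0.0723, and -1.01 for the second, at 0.0562. This decrease was called in the block fit (adjusted p = 0.0183), with array weights (adjusted p = 0.0130), with the mean of both probe sets (adjusted p = 0.0489) and without the array luteolin + LPS 1 (-1.39, adjusted p = 0.0165), and was -0.997 without the array luteolin + LPS 2. In cells without luteolin, LPS gave -0.37 (95% confidence interval -0.95 to 0.21) on the kept probe set. On the second, the LPS arrays (547.1 to 609.7) overlapped the control arrays (589.6 to 635.1), with a log2 fold change of -0.10. The interaction on the kept probe set was -0.72 (-1.54 to 0.10), with an unadjusted p of 0.0800 and an adjusted p of 0.9993.

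Fth1, the ferritin heavy chain that oxidizes and stores iron, was read near the upper end of the signal scale. Its kept probe set ranked 1 or 2 of the 45101 probe sets on every array, with signals of 27920, 28070 and 28460 in control, 28900, 28460 and 29430 in luteolin, 29690, 30080 and 29480 in LPS, and 29690, 29220 and 29800 in luteolin + LPS cells. The second probe set ranked between 3 and 9. The arrays were quantile normalized, which sets the highest values of every array nearly equal, so that changes of Fth1 could be read over a narrow range only. Its log2 fold changes ran from -0.01 to 0.08, none was called, and the LPS arrays lay above the control arrays by 0.08 (95% confidence interval -0.10 to 0.26).

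Counting arrays without a test, Slc11a1, Slc40a1 and Mt1 did not overlap between luteolin and control and were all higher, 3 of the 9 genes, where 8.29% of all genes tested were higher and 11.3% lower without overlap. For LPS against control 2 were higher (Slc11a1 and Slc11a2), with a background of 11.5%, and Slc40a1 was lower on its kept probe set, with a background of 16.1%. Fth1 did not overlap in either comparison but is left out of these counts, because its arrays differed only within the narrow top of the normalized scale and the highest control and lowest luteolin array were both 28460 to 4 digits. For luteolin + LPS against LPS, Slc11a1 was higher and Mt2 lower without overlap, with a background of 8.04% in each direction. For luteolin + LPS against luteolin, Slc11a2 was higher, with a background of 7.36%, and Slc40a1, Mt1 and Mt2 were lower, with a background of 10.2%.

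Mt1 and Mt2 lie next to each other, with annotated starts 6471 bases apart on chromosome 8. Their promoters hold metal response elements, the sites of the zinc-sensing factor MTF1. The 300 bases from 250 before to 50 after the RefSeq start (GRCm38.p6) are shown for both genes and for Slc30a1, another target of MTF1, because the 3 genes are known to respond to zinc through the same motif. Capitals mark each match to the core of the element, TGCACNC or TGCGCNC, on either strand. The windows are chr8:94178839-94179138 for Mt1, chr8:94172368-94172667 for Mt2 and chr1:191906531-191906830 for Slc30a1, all on the plus strand.
Mt1: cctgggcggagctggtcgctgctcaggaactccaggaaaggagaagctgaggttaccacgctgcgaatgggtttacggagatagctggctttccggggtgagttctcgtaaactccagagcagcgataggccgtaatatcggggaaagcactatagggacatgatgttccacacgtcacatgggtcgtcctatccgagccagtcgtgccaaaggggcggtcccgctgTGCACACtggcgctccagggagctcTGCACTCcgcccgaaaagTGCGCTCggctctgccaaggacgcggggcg
Mt2: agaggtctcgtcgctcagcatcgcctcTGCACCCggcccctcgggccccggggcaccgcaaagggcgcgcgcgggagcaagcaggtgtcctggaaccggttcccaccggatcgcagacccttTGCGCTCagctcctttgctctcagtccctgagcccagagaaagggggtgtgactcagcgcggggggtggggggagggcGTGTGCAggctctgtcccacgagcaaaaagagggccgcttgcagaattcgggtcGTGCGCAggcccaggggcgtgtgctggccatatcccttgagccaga
Slc30a1: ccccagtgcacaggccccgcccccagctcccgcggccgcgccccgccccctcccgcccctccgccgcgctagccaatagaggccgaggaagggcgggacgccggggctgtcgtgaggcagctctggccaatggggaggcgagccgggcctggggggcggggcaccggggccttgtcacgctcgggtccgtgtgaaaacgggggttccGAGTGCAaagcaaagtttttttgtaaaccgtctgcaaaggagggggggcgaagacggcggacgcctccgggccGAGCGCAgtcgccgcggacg

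The Mt2 window held 4 core matches and the Mt1 window 3, whereas 1.97% of the 32851 RefSeq promoter windows of this length held 3 or more and 0.517% held 4 or more. The Slc30a1 window held 2 matches, and 7.11% of all windows held 2 or more. The Tfrc window at chr16:32608646-32608945 also held 2, on opposite strands and overlapping each other, 53 to 47 and 50 to 44 bases before the start. In Mt1 the 3 matches lay at 23 to 17 bases before the annotated RefSeq start and at 3 to 9 and 21 to 27 bases after it. The antioxidant response element core TGACNNNGC, bound by NRF2, occurred once in the Mt2 window, 79 to 71 bases before the start, once in the Slc30a1 window and not in the Mt1 window, beside 12.4% of all windows. None of the matches in the Mt1, Mt2 and Slc30a1 windows overlapped another. The Slc11a1 window held none of these motifs, the NF-kappaB consensus occurred in no window of the 6 genes searched and in 8.46% of all windows, and windows of Slc11a2, Slc40a1 and Slc39a14 were not used here. These matches are a description of the letters in the windows and do not show that a factor was bound. Bases outside the windows were not searched, so a motif absent from a window may still lie elsewhere in the promoter.

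The signals of Mt1 were 7016, 9578 and 10050 in control and 11860, 14190 and 12140 in luteolin cells. Every luteolin array lay above every control array. LPS cells read 8266, 11420 and 12530 and luteolin + LPS cells 7587, 11460 and 10840, which overlapped each other and the control arrays. Replicate 1 was the lowest array in each condition.

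Mt1 was 1.45-fold higher with luteolin than in control, a log2 fold change of 0.53 ± 0.21 (SE, n = 3), at an adjusted p of 0.470 in limma and 0.0994 in the block fit. That size was read on the kept probe set, and the mean of both probe sets gave 0.18. With LPS present, luteolin gave -0.11 (95% confidence interval -0.57 to 0.35). LPS gave 0.27 against control and -0.37 against luteolin, and neither was called. A second probe set of Mt1, 1451612_at, was far dimmer, at 76.2 to 271, and gave -0.18 for luteolin and -0.57 for LPS against control, both opposite in sign to the kept probe set. Neither was called (adjusted p = 0.973 and 0.427). The kept probe sets of Mt1 and Fth1 carry the suffix _s_at, which Affymetrix gives to probe sets that can match more than 1 related transcript, so their signals may include such transcripts.

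Mt2 read 9874, 9965 and 11210 in control, 11340, 11480 and 10730 in luteolin and 9090, 12640 and 13010 in LPS cells, and these conditions overlapped. In luteolin + LPS cells it read 8486, 6534 and 8988. These 3 arrays were the lowest of the 12. The log2 fold change against LPS was -0.53 ± 0.16 (SE, n = 3), a ratio of 0.693, at an adjusted p of 0.154 in limma, 0.0851 in the block fit and 0.0418 with array weights. Against luteolin it was -0.50 ± 0.16 at an adjusted p of 0.2005. Without the array luteolin + LPS 2, which had the lowest signal, the values were -0.39 and -0.36. The interaction of luteolin and LPS was -0.64 for both metallothioneins, with unadjusted p of 0.0531 for Mt1 and 0.0169 for Mt2 and an adjusted p of 0.9993 for each, so no interaction was called.

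Slc39a14, the zinc and iron importer ZIP14, read 394.7, 487.8 and 505.2 in control, 334.4, 466.3 and 374.6 in luteolin, 359.0, 475.8 and 381.0 in LPS, and 321.8, 495.0 and 523.0 in luteolin + LPS cells. All 4 conditions overlapped. Its log2 fold changes lay between -0.25 (95% confidence interval -0.70 to 0.21, luteolin against control) and 0.17. The probe sets 1425649_at and 1438490_at gave log2 fold changes of -0.12 to 0.28 in the 4 comparisons, and 1457770_at was under 50 on all 12 arrays.

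Slc30a1, which encodes the zinc exporter ZnT1, read 681.8, 1228 and 1269 in control, 899.6, 1539 and 1092 in luteolin, 904.1, 1510 and 1786 in LPS, and 1073, 850.0 and 2466 in luteolin + LPS cells. All 4 conditions overlapped, and the highest of the 12 arrays was luteolin + LPS 3. The log2 fold change was 0.40 for LPS (95% confidence interval -0.51 to 1.30) and 0.17 for luteolin (-0.74 to 1.07), and changes of that width could not be told from 0 with these arrays. Its second probe set, 1422786_at, read 147 to 180.4 in control and 208 to 259 in luteolin cells without overlap, and gave 0.48 for luteolin and 0.44 for LPS, neither of which was called (adjusted p = 0.604 and 0.264).

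The other genes of iron, heme and zinc handling were read from lists by function. Without the block, 4.18% of all genes tested were called for LPS against control and 0.505% for luteolin + LPS against LPS. The shares were 1.81% for luteolin + LPS against luteolin and 0% for luteolin against control. In the block fit they were 11.1%, 4.79%, 4.59% and 0.282%, in the same order. Of the iron uptake, export and transport list, 12 of 15 genes were tested, and 2 rose and none fell with LPS against control. Lcn2, the siderophore-binding lipocalin, rose from 23.5, 128 and 57.3 in control to 7377, 12330 and 11280 in LPS cells, a log2 fold change of 7.50 (adjusted p = 0.00209 in limma) or 7.14 with values under 50 set to 50. Cp, the ferroxidase ceruloplasmin that works with ferroportin, rose from 149 to 206 in control to 940 to 1596 in LPS cells, a log2 fold change of 2.87 (adjusted p = 0.0487). In luteolin cells Cp read 71.0, 55.7 and 67.3, below every control array, where 11.3% of all genes tested were lower without overlap. That difference was not called in either fit. The call of Cp was kept in 3 of the 12 fits that left out 1 array, a check chosen after seeing the data, and that of Lcn2 in all 12. With luteolin + LPS, Lcn2 read 1203, 242 and 6527 and Cp 676, 59.2 and 535, and the differences from LPS, at -3.03 and -2.26, were not called (adjusted p = 0.166 and 0.165). The lowest value of both genes was that of the array luteolin + LPS 2, and without it the differences were -1.85 and -1.14. Without luteolin + LPS 3, the difference of Lcn2 was -4.22 and was called (adjusted p = 0.0359). In luteolin + LPS against luteolin Lcn2 rose and Hfe, a regulator of iron uptake, fell, and with 1 array left out these calls were kept in 9 and 8 of 12 fits.

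**Figure D5:**
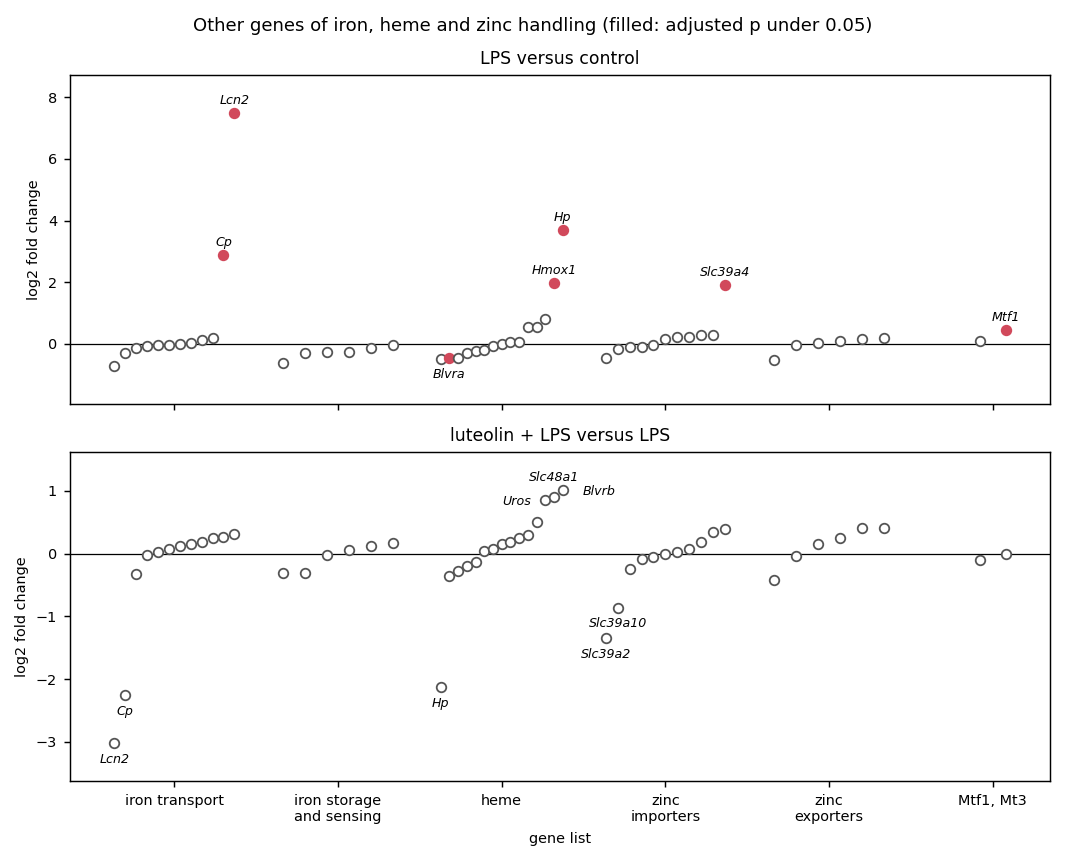
Log2 fold changes (y axis) of the tested genes of 6 lists of iron, heme and zinc handling (x axis) for LPS against control (top) and luteolin + LPS against LPS (bottom), with calls at an adjusted p under 0.05 filled. The top panel holds 7 calls, led by Lcn2 at 7.50, and the bottom panel holds 0, where 4.18% and 0.505% of all genes tested were called.

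Of 17 heme handling genes 15 were tested, and 2 rose and 1 fell with LPS against control, beside calls for 4.18% of all genes. The share called in the block fit was 11.1% for LPS against control, 4.79% for luteolin + LPS against LPS and 4.59% for luteolin + LPS against luteolin. Hp, which encodes the hemoglobin-binding haptoglobin, rose from 88.5, 162 and 222 to 1058, 3082 and 2141, a log2 fold change of 3.70 (limma adjusted p = 0.0116). Hmox1, the inducible heme oxygenase that frees iron from heme, rose by 1.97 (adjusted p = 0.0365), from 567, 2305 and 2005 to 4629, 6455 and 5261. Blvra, one of the biliverdin reductases, fell by 0.47 on the log2 scale (adjusted p = 0.0299). With 1 array left out, the call of Hp was kept in 12 of 12 fits, that of Blvra in 6 and that of Hmox1 in 5, and without control 1 Hmox1 rose by 1.33 (adjusted p = 0.0369). In the block fit Blvrb, a second biliverdin reductase, and Alas1, which encodes the first enzyme of heme synthesis, also rose, by 0.81 and 0.54 (adjusted p = 0.0386 and 0.0367). For luteolin + LPS against LPS none of the 15 was called in limma and 4 had an unadjusted p under 0.05, where 14.9% of all genes did. In the block fit Blvrb and Slc48a1, a heme transporter, rose by 1.02 and 0.89 and Hp fell by 2.12, with adjusted p of 0.0341, 0.0300 and 0.0401. Without the array luteolin + LPS 2 the difference of Hp was -1.66, and without luteolin + LPS 3 it was -2.97 and was called without the block (adjusted p = 0.0298). In luteolin + LPS against luteolin, the block fit called Abcg2, a porphyrin and heme exporter, at -0.95 (adjusted p = 0.0114). For luteolin against control, Hmox1, Blvrb and Slc48a1 were higher by 1.195, 1.23 and 0.94 and were not called in either fit. The value of Hmox1 rested in part on control 1, and without that array it was 0.55.

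Iron storage and sensing genes beside Fth1 held no call without the replicate block. Of 8 listed, 6 were tested, and none was called in limma in LPS against control, where 1 had an unadjusted p under 0.05 beside 20.5% of all genes. That gene, Ncoa4, the receptor that delivers ferritin to the lysosome, read 7395, 4529 and 5098 in control and 3711, 3560 and 3427 in LPS cells, a log2 fold change of -0.64 (adjusted p = 0.120, or 0.0179 in the block fit). Without control 1 the value was -0.43 (adjusted p = 0.304 in limma without the block). In luteolin + LPS against luteolin Ncoa4 gave -0.58, called in the block fit (adjusted p = 0.0409). The block fit called 11.1% and 4.59% of all genes tested in these 2 comparisons. The iron regulatory proteins encoded by Aco1 and Ireb2 gave -0.13 and -0.28 and were not called. The median of the 6 genes was -0.27 for LPS against control, beside -0.04 over all genes tested. The same median was -0.01 for the iron transport list, -0.002 for the heme list, 0.15 for the zinc importers and 0.05 for the zinc exporters.

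Zinc transporters beyond Slc39a14 and Slc30a1 held 1 call for LPS against control, beside calls for 4.18% of all genes tested. Of 13 zinc importers 11 were tested, and Slc39a4 rose from under 50 in all control arrays (28.2 to 43.7) to 86.9, 171 and 156 in LPS cells, a log2 fold change of 1.92 (limma adjusted p = 0.0212), or 1.40 with values under 50 set to 50, and the call was kept in 8 of 12 fits with 1 array left out. In luteolin + LPS cells Slc39a4 read 119, 132 and 339, and in luteolin cells all arrays were under 50. That difference was called too, at 2.22, or 1.80 with values under 50 set to 50. The call was kept in 10 of 12 fits with 1 array left out, and 1.81% of all genes tested were called in this comparison. None of the 11 was called for luteolin + LPS against LPS, where 2 had an unadjusted p under 0.05 beside 14.9% of all genes. In the block fit Slc39a2 and Slc39a10 fell by 1.34 and 0.86 on the log2 scale (adjusted p = 0.0184 and 0.00633), and each of the 3 luteolin + LPS arrays of Slc39a2 lay below all LPS arrays. Without luteolin + LPS 1, Slc39a2 was called without the block too, at -1.65 (adjusted p = 0.0296). The block fit also called Slc39a10 at -0.69 for luteolin against control (adjusted p = 0.0379) and Slc39a6 at -0.46 for LPS against control (adjusted p = 0.0489). Of 9 zinc exporters 6 were tested and none was called in limma, with 1 unadjusted p under 0.05 for LPS against control, that of Slc30a5 at -0.54 (adjusted p = 0.133, or 0.0267 in the block fit), beside 20.5% of all genes.

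Mtf1, which encodes the zinc-sensing activator of Mt1 and Mt2, rose slightly with LPS. It read 291, 274 and 268 in control and 384, 371 and 384 in LPS cells, a log2 fold change of 0.45 ± 0.11 (SE, n = 3) at an adjusted p of 0.0417 in limma, a call kept in 3 of 12 fits with 1 array left out. Luteolin gave 0.03 against control and -0.10 against LPS. Mtf1 read higher with LPS in cells whose Mt1 and Mt2 did not pass the test in the same comparison. Mt3, the metallothionein of the brain, was the other tested gene of that list of 3 and was not called.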

How the data were processed

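RNA from 12 BV-2 cultures (4 conditions, 3 arrays each) had been hybridized to Affymetrix mouse genome arrays. The authors summarized the scans with Robust Multichip Analysis (RMA), which corrects background and normalizes by quantiles, and deposited 1 intensity per probe set on a linear scale. The labels' extraction and labelling text names another cell line and another assay than the study's methods, which were followed here. Arrays were grouped by the agent in the labels. Probe sets were named through the platform annotation: 34958 had 1 gene, 932 several and 9211 none.

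Intensities were taken to log2, each gene was represented by its brightest probe set, and the 12071 of 18194 genes whose mean reached 50 in any condition were fitted with limma 3.58.1 in R 4.3.3, as 4 condition means over all arrays. Adjusted p-values are Benjamini-Hochberg over all genes tested. The 9 members, pathway genes called in LPS against control or luteolin + LPS against LPS (up to 3 per list, by size) and the 3 genes nearest to a called member are named, with others added after their values were seen. Members and lists were chosen with earlier results of these data known.

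The methods describe 3 independent RNAs per condition. Arrays of the same replicate number deviated together, with correlations of 0.101 to 0.591 in all 18 pairs (median 0.421). The 36 pairs of different number ran from -0.563 to 0.483 (median -0.295), so the ranges overlapped. The block fit is given where it changed a call among the 9 genes or the iron, heme and zinc lists. The scripts were tested on simulated data. Alternatives were array weights, other normalizations and filters, averaging the probe sets of each gene, and leaving out each array. The array weights were estimated from how far each array lay from its condition mean, without the replicate number. They were 0.211 to 0.549 for the replicate 1 arrays, 0.458 for luteolin + LPS 2 and 1.112 to 3.043 for the rest. Calls with array weights are therefore not counted as evidence separate from the block fit. The number of arrays limits the precision. Windows, motifs and start sites are from RefSeq.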

Additional observations from a re-analysis of the deposited data

Results flagged for a closer look

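The effect of LPS on Mt1 pointed opposite ways with and without luteolin. LPS arrays were higher than control arrays of the same number by 0.24, 0.25 and 0.32 on the log2 scale, and luteolin + LPS arrays were lower than luteolin arrays by 0.65, 0.31 and 0.16 (differences of -0.65, -0.31 and -0.16). In limma the difference between these effects was -0.64 (95% confidence interval -1.29 to 0.01), with an unadjusted p of 0.0531 and an adjusted p of 0.9993 over all genes tested, and -0.64 with an adjusted p of 0.599 in the block fit. The sign was the same in all 3 replicate numbers on each side, which drew attention to it, but the difference did not pass the test. The dim second probe set of Mt1 gave 0.26 for the same difference.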

How the results depend on the processing

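The calls of Slc11a2 for LPS, with and without luteolin, were kept under every alternative run. Over all 9 genes and 5 contrasts, 941 of 981 values kept their sign and their side of the threshold, 16 gained a call, 24 changed sign (none of them called) and 0 lost a call. Members called numbered 0 for luteolin, 0 for luteolin + LPS against LPS, 1 for LPS and 1 for luteolin + LPS against luteolin. With the replicate block (replicate number paired) they were 1, 1, 2 and 3, with array weights 2 each, and with a random replicate block 1 for luteolin + LPS against LPS and 2 for both LPS contrasts; in luteolin + LPS against luteolin averaged probe sets gave 2. Leaving out 1 array gave 1 to 2 members there and no change in the other contrasts.

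Genes called numbered 0, 61, 505, 218 and 0 for luteolin, luteolin + LPS against LPS, LPS, luteolin + LPS against luteolin and the interaction. The replicate block gave 34, 578, 1338 and 554, the random replicate block 23, 444, 1259 and 480, and array weights 962, 292, 1950, 592 and 5. With the compared groups alone, they were 0, 306 and 101 for the second to the fourth contrast. Quantile normalizing again gave 2 for luteolin, and values under 50 set to 50 gave 2 for the interaction. Leaving out 1 array gave 0 to 1, 11 to 142, 197 to 660, 69 to 303 and 0 to 2; the lowest counts came without LPS 3, control 3 and luteolin 3.

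With 1 array left out, chosen after seeing the data, the pathway genes called for LPS kept their sign, at 6.88 to 8.10 for Lcn2, 3.33 to 4.13 for Hp, 2.72 to 3.12 for Cp, 1.33 to 2.34 for Hmox1, 1.74 to 2.22 for Slc39a4, 0.43 to 0.49 for Mtf1 and -0.53 to -0.39 for Blvra.

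The sign of Slc30a1 turned with array weights for luteolin (-7e-04), luteolin + LPS against LPS (0.0396) and the interaction (0.0402), and with the mean of its probe sets for luteolin + LPS against LPS (0.13). Luteolin + LPS against LPS also turned for Slc11a2 (0.0063 with array weights, 0.31 with the probe set mean) and Slc40a1 (-0.10 with array weights), and LPS against control for Mt1 (-0.15) and Slc39a14 (0.0394) with the probe set mean. With 1 array left out, Slc30a1 ran from -0.12 to 0.35 for luteolin, -0.49 to 0.27 for luteolin + LPS against LPS, -0.27 to 0.50 for luteolin + LPS against luteolin and -0.66 to 0.10 for the interaction. For luteolin + LPS against LPS, Mt1 ran from -0.29 to 0.0755, Slc39a14 from -0.0113 to 0.34 and Slc40a1 from -0.21 to 0.28, and the interaction of Slc11a1 from -0.31 to 0.0232. The cause of these changes was not tested. With 3 arrays per condition the confidence intervals are wide, so the absence of a call does not show that a gene was unchanged.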
